A study of Mus musculus with 6 samples.

Results

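The LY6 surface antigens described here are 7 mouse genes, Ly6a, Ly6c1, Ly6c2, Ly6d, Ly6e, Ly6g and Ly6i. They were chosen by gene symbol from the 56691 genes of the deposited table, and each symbol matched 1 row. Ly6a, Ly6c1, Ly6c2, Ly6e, Ly6g and Ly6i were taken as the 6 leukocyte members and Ly6d as the 1 epithelial member. RNA sequencing was done on macrophages grown from mouse bone marrow with M-CSF, the macrophage growth factor, and sorted after culture with mEC25, which is a cancer cell line. In the contact group (3 libraries) the macrophages and the cancer cells shared a dish directly, and in the transwell group (3 libraries) they were kept apart and shared medium. Both groups had cancer cells, so a macrophage grown without them is not part of the comparison. The sources used here do not give genotype, strain, age, time in culture or sorting markers. Nor do they say whether replicates came from separate animals or cultures, so p-values cover the spread between these libraries, which may be technical.

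LY6 proteins are small cell surface proteins with a compact three-finger fold, and most are tied to the membrane by a glycosylphosphatidylinositol (GPI) anchor. In mouse they serve as markers of blood cell types. Ly6C, made from Ly6c1 and Ly6c2, is high on inflammatory monocytes and fades as these become macrophages. Ly6G marks neutrophils, and Ly6A, also called Sca-1, marks blood stem cells and is found on many activated and transformed cells. Ly6E is broadly made and is known from virus entry, and several members are induced by interferon. Ly6D is known from early B cells and from stratified epithelium.

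All 7 genes lie in 1 cluster on chromosome 15. In the GENCODE M21 annotation (build GRCm38) each is a protein-coding gene, and none overlaps another annotated gene. Ly6d (ENSMUSG00000034634) lies at chr15:74762056-74763620, minus strand. Ly6e (ENSMUSG00000022587) follows at chr15:74955051-74959905, plus strand. Next come, all on the minus strand, Ly6i (ENSMUSG00000022586) at chr15:74979534-74983430, Ly6a (ENSMUSG00000075602) at chr15:74994877-74998031, Ly6c1 (ENSMUSG00000079018) at chr15:75044018-75048830 and Ly6c2 (ENSMUSG00000022584) at chr15:75108158-75111970. Ly6g (ENSMUSG00000022582) ends the row at chr15:75155240-75159126 on the plus strand.

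Whether reads could be told apart between members matters most for Ly6c1 and Ly6c2, and their coding sequences are shown for that reason. They come from GENCODE M21 (for each gene the lowest-numbered transcript with a complete coding sequence). The first 300 of 396 bases are written 5′ to 3′, with the bases that differ between the genes in capitals.
Ly6c1: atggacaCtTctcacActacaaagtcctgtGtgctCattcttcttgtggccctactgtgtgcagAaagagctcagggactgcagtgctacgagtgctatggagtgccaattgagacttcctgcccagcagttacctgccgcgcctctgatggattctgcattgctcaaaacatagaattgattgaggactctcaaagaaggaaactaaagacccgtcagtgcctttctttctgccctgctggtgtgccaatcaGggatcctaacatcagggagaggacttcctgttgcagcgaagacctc
Ly6c2: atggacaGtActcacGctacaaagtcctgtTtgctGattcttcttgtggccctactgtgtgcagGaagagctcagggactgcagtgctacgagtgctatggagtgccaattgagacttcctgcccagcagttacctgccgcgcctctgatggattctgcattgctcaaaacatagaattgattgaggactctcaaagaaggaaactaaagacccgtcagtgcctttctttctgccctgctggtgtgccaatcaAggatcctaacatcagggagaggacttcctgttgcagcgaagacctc
Over their full length the coding sequences were 97.7% identical and differed at 9 bases, of which 7 lie in the part shown, and the longest stretch without a difference was 188 bases. Among the other pairs, Ly6a and Ly6i were closest (86.4% identity). Ly6a, Ly6c1, Ly6c2, Ly6g and Ly6i formed a group with 78.3% or more identity in each pair, whereas Ly6d and Ly6e shared at most 53.8% with any other member. Counting all annotated transcripts, 19.0% of the 75-base windows of Ly6c1 also occurred in another gene, mostly in Ly6c2 (14.7%). For Ly6c2 the share was 9.46%, for Ly6a 6.33% and for Ly6i 0.519%, and no window of Ly6d, Ly6e or Ly6g was shared. The sources used here do not say how reads matching 2 genes were counted, so the values of Ly6c1, Ly6c2 and Ly6a carry that uncertainty.

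In contact libraries Ly6a was 5.39-fold and Ly6c2 1.63-fold higher, Ly6c1 appeared at a low level from near absence, and Ly6e, the most abundant member, was 1.33-fold lower. No change of Ly6i passed the test, and Ly6g and Ly6d were close to the limit of detection in both groups. Of the 7 members 5 passed the filter on low counts and were tested with edgeR's quasi-likelihood test, and 3 of these were higher and 1 lower in contact at a Benjamini-Hochberg adjusted p under 0.05. Of all 14113 genes tested, 21.4% were called higher and 16.1% lower. Of all calls 57.1% were higher, a share that was 73.1% when libraries were scaled by their totals only, with the same member calls. Ly6c1 passed the filter through the contact libraries alone and so had to be higher if tested. Log2 changes are contact minus transwell throughout, and their median over all tested genes was 0.03. Levels are given in FPKM, fragments per kilobase of a gene's exons scaled to the library total, as deposited.

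**Figure D1:**
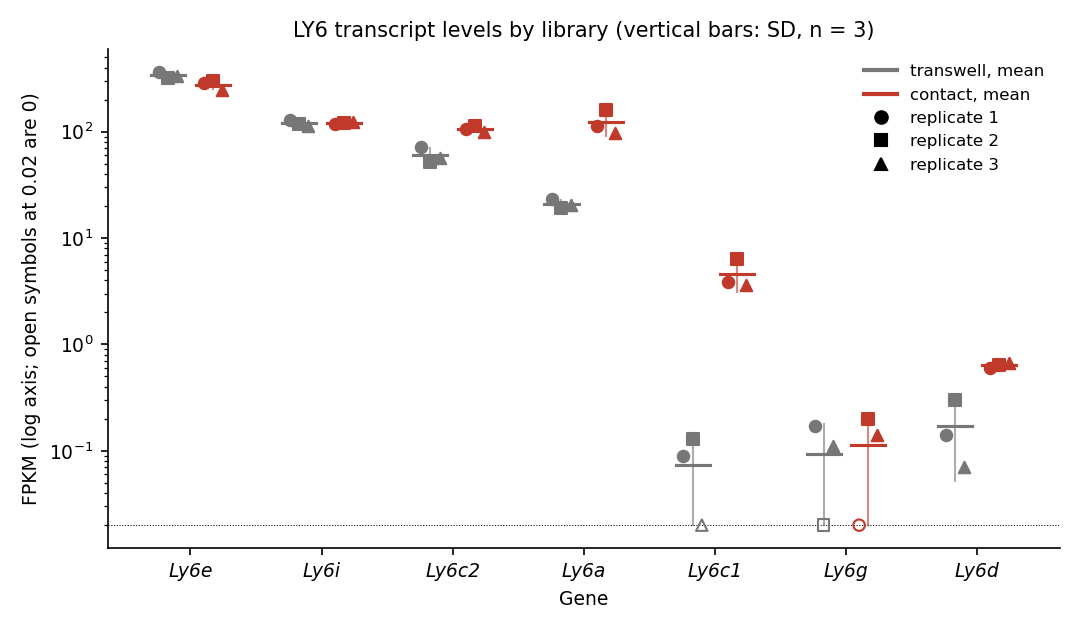
FPKM of the 7 LY6 genes on a log axis, with 1 symbol per library (grey, transwell; red, contact), a horizontal line at the mean and a vertical bar for the SD (n = 3); open symbols on the dotted line are libraries with 0. Ly6a, Ly6c1, Ly6c2 and Ly6d are higher in every contact library than in any transwell library, Ly6e is lower, and the groups of Ly6i and Ly6g overlap.

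Ly6c2, which encodes the Ly6C antigen used to tell inflammatory monocytes from mature macrophages, stood at 106, 113 and 99.2 FPKM in contact replicates 1 to 3 and at 71.6, 52.0 and 57.1 FPKM in transwell replicates 1 to 3. All contact libraries lay above all transwell libraries, and transwell replicate 1 was the nearest to them. The means were 106 ± 7.12 and 60.3 ± 10.2 FPKM (SD, n = 3), which gives a log2 change of 0.70 ± 0.12 (SE) with an edgeR adjusted p = 0.00115. The deposited exonic length of Ly6c2 is 2740 bases, and GENCODE M21 lists for it a transcript of 2680 bases with a retained intron beside coding transcripts of at most 822 bases. Its FPKM is therefore low against a level per coding transcript, and its place among the members depends on that length.

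Ly6c1, the near-identical neighbour of Ly6c2, had 147, 222 and 134 counts in the contact libraries and 3, 4 and 0 counts in the transwell libraries. These correspond to 3.88, 6.33 and 3.60 FPKM against 0.09, 0.13 and 0 FPKM. The groups were far apart, and contact replicate 2 stood highest. The log2 change was 5.75 ± 0.51 (SE, edgeR adjusted p = 2.15e-05), which is 54-fold. By counts alone, 503 against 7, the ratio per library count was 60.9, with an exact 95% interval of 29.3 to 152 that covers counting error only. Without transwell replicate 2 the log2 change was 6.34, over 1.5 times the fold of all libraries.

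Of the reads assigned to Ly6c1 or Ly6c2, Ly6c1 took 2.18%, 3.30% and 2.17% in contact libraries. In transwell libraries the shares were 0.0808% (exact 95% interval 0.0167% to 0.236%), 0.154% (0.0420% to 0.394%) and 0% of 2907 counts, with an upper limit of 0.127%. The shares averaged 2.55 ± 0.65% in contact and 0.0783 ± 0.0771% in transwell (SD, n = 3), and every contact share lay above every transwell interval. In a two-sided exact permutation test the difference had p = 0.1, the smallest that 3 libraries against 3 allow. The shares use the same Ly6c1 counts as its log2 change, through which it passed the filter. They describe that change again and are no separate support for it.

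Ly6a, the gene of Sca-1, stood at 113, 159 and 97.5 FPKM in contact and at 23.2, 19.4 and 20.5 FPKM in transwell libraries. The transwell libraries were tightly grouped, and the contact libraries were spread, with replicate 2 highest and replicate 3 lowest. The means were 123 ± 32.2 and 21.03 ± 1.99 FPKM (SD, n = 3), and the log2 change was 2.43 ± 0.17 (SE; adjusted p = 5.48e-06 by edgeR). In transwell libraries Ly6a was below Ly6e, Ly6i and Ly6c2, and in contact libraries its range held all the values of Ly6c2 and Ly6i.

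Ly6e, a broadly expressed member, had the highest FPKM of the 7 genes in every library. It stood at 288, 298 and 248 FPKM in contact and 365, 322 and 333 FPKM in transwell libraries. Each contact library lay below each transwell library, though by little, since contact replicate 2 and transwell replicate 2 were 298 and 322 FPKM. The log2 change was -0.41 ± 0.09 (SE, edgeR adjusted p = 0.00501), which is 1.33-fold lower. FPKM of the groups did not overlap for 51.2% of all genes tested, so the lack of overlap by itself is common here.

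Ly6i, a close relative of Ly6a, stood at 118, 121 and 124 FPKM in contact and 130, 117 and 114 FPKM in transwell libraries. The groups overlapped and the means were 121 ± 2.98 and 120.5 ± 8.53 FPKM (SD, n = 3). Its log2 change of -0.11 ± 0.08 (SE) did not pass the test (edgeR adjusted p = 0.296), and the value was 0.01 when libraries were scaled by their totals only, or by limma on log2 FPKM. A p that misses the threshold does not show that the level was the same.

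Ly6g, the gene of the neutrophil antigen, was seen with 0, 4 and 3 counts in the contact replicates and with 3, 0 and 2 counts in the transwell replicates, and was too low to be tested. The 7 counts against 5 give a ratio of 1.19 with an exact 95% interval of 0.324 to 4.74 for counting error, so a difference was not detectable at this depth. Other genes of neutrophils and their precursors were not at this floor. The calprotectin genes S100a8 and S100a9 stood at 262 ± 38.5 and 526 ± 114 FPKM in contact, against 281 ± 114 and 381 ± 227 FPKM in transwell (SD, n = 3), and neither passed the test (log2 changes -0.22 and 0.35). With no filter on low counts both were called (-0.26 and 0.30). Their SEs there were 0.0957 and 0.0952, against 0.237 and 0.337 in the main fit, so these calls rest on a smaller spread. Without transwell replicate 1, which had the highest level of both among transwell libraries, S100a9 was called at 0.97 and S100a8 turned to 0.18. Genes of granule enzymes of immature granulocytes rose in contact, with Elane at 29.3 ± 7.30 against 3.92 ± 1.88 FPKM (log2 change 2.78 ± 0.29) and Mpo at 21.4 ± 4.59 against 3.21 ± 2.14 FPKM (2.61 ± 0.37). Retnlg (2.90) and the chemokine receptor gene Cxcr2 (2.29) rose too, but Retnlg, with 23 counts over the transwell group, passed the filter through contact libraries. Without transwell replicate 1 the log2 changes of Mpo and Retnlg were 3.32 and 3.49, over 1.5 times the fold of all libraries. Lcn2 (37.0 ± 4.16 against 112 ± 26.7 FPKM) and Mmp8 (76.6 ± 7.87 against 228 ± 13.04 FPKM) fell. Over the whole neutrophil list of 14 genes, 5 rose, 2 fell and 7 were not called, where 21.4% of all genes tested rose and 16.1% fell. The summed level of the list was 968 to 1325 FPKM in contact and 868 to 1555 FPKM in transwell libraries.

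Ly6d, the epithelial member, gave 10, 10 and 11 counts in the contact replicates and 2, 4 and 1 in the transwell replicates. In FPKM these are 0.60, 0.64 and 0.67 against 0.14, 0.30 and 0.07. The contact libraries were all higher and close to each other, but at 31 counts against 7 the gene did not reach the filter for the test. The ratio of counts was 3.75, with an exact 95% interval of 1.62 to 10.1 for counting error. When genes were tested with no filter the log2 change was 1.72 ± 0.76 (SE, edgeR adjusted p = 0.0953), and with DESeq2 it was 1.77 ± 0.98 (adjusted p = 0.186). Without transwell replicate 2, which held 4 of the 7 counts, the gene entered edgeR's test with a log2 change of 2.33 (adjusted p = 0.0307) and was called. Without transwell replicate 1 or 3 it entered too, at 1.64 and 1.39, and was not called (edgeR adjusted p = 0.101 and 0.136). In the remaining alternatives of the 15 it was filtered out and could not be called.

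The low level of Ly6d stood beside strong signal of other epithelial genes. The 32 epithelial markers summed to 998 to 1751 FPKM in contact and 5.13 to 5.75 FPKM in transwell libraries, where 31 of the 32 had a mean under 0.5 FPKM. Of 25 tested, 24 were higher in contact and none lower, for example the basal keratin genes Krt5 (376 ± 120 against 0.0967 ± 0.0379 FPKM) and Krt14 (282 ± 83.3 against 0.207 ± 0.0666 FPKM). With transwell levels this low, the epithelial genes passed the filter through the contact libraries, so this count is a description. In bulk RNA, more cells of a type and more RNA per cell cannot be told apart. How much of any LY6 transcript in contact libraries came from cells other than macrophages was not tested.

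The contact libraries differed in their epithelial signal, and the members differed in how they varied with it. Relative to their mean, contact replicates 1 to 3 held 0.890, 1.34 and 0.766 of the epithelial marker sum. Ly6c1 stood at 0.843, 1.38 and 0.782 of its own contact mean, and Ly6a at 0.915, 1.29 and 0.791. From contact replicate 3 to replicate 2 the level was 1.76-fold for the marker sum, 1.76-fold for Ly6c1 and 1.64-fold for Ly6a. It was 1.14-fold for Ly6c2, 1.20-fold for Ly6e, 0.974-fold for Ly6i and 0.955-fold for Ly6d. The ratio of Ly6d rests on 10 and 11 counts, so its counting error is large. For Lypd3 and Lynx1, family genes described below, it was 1.11-fold and 1.57-fold. The F4/80 gene Adgre1, a macrophage marker, was lowest in contact replicate 2, at 0.902 of its mean. These are 3 libraries, too few for a test, and the part of the epithelial signal in the rises of Ly6a and Ly6c1 was not tested.

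**Figure D2:**
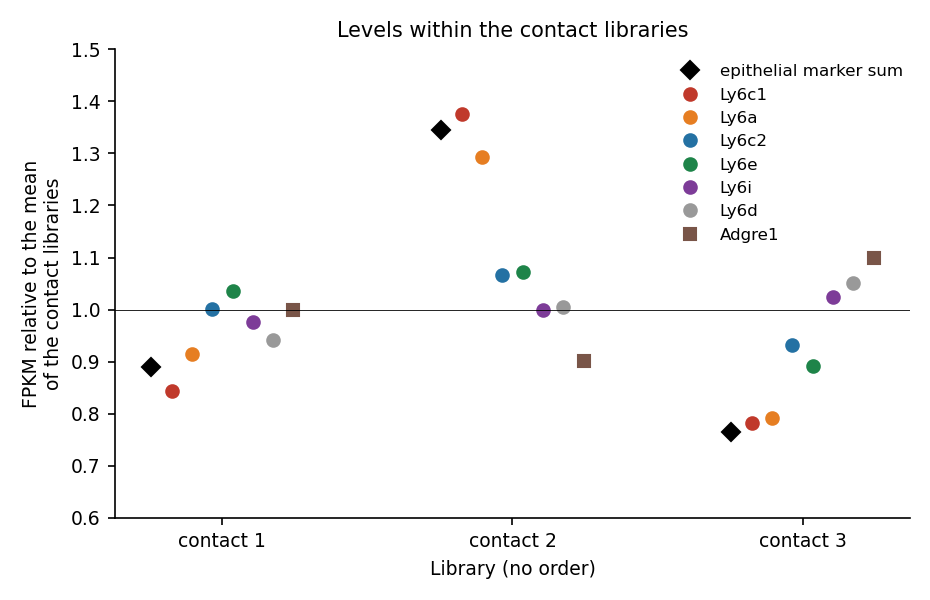
FPKM in each contact library divided by the mean of the 3 contact libraries, for LY6 members, the sum of 32 epithelial markers (black diamonds) and the macrophage marker Adgre1 (brown squares). Ly6c1 and Ly6a lie with the epithelial sum in each library, highest in contact replicate 2, while Ly6c2, Ly6e, Ly6i and Ly6d stay between 0.892 and 1.07. Ly6d rests on 10 or 11 counts per library.

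The genes with profiles most like each called member, out of 9809 with a mean of at least 1 FPKM, were found by the root mean square difference of centred log2 CPM over the 6 libraries. For Ly6a they were Cttn, the gene of the actin regulator cortactin (difference 0.0564), and the mitotic kinase genes Melk (0.0807) and Aurka (0.102). Cttn stood at 7.87, 11.2 and 6.52 FPKM in contact and 1.48, 1.21 and 1.37 FPKM in transwell libraries. For Ly6c1, whose low transwell counts make the match looser, they were Cd109, a gene of another GPI-anchored surface protein (0.238), Arhgef5 (0.394) and the Notch target gene Hes1 (0.398). For Ly6c2 they were Pdk3, a gene of a mitochondrial kinase (0.0514), and the tetraspanin genes Cd81 (0.0607) and Cd9 (0.0682). Cd9 stood at 155, 163 and 151 FPKM in contact and 94.2, 74.9 and 86.3 FPKM in transwell libraries. For Ly6e they were Arhgap9 (0.0280), Cox19 (0.0335) and the cytoplasmic actin gene Actb (0.0355), whose log2 change was -0.46 ± 0.08.

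Among other genes of the family, a list of 36, the pattern was one of mostly silent genes and a few that differed. Only 5 passed the filter on low counts, of which 3 were higher and 1 lower in contact. Among all genes tested, 21.4% were called higher and 16.1% lower. Lypd3, with no count in transwell libraries, passed the filter through contact libraries alone, so the count of higher genes is a description. Each of the 31 others had at most 39 counts summed over contact and 29 over transwell libraries. Plaur, the gene of the urokinase receptor, rose from 43.3, 32.4 and 38.5 FPKM in transwell to 79.7, 78.4 and 78.4 FPKM in contact libraries, a log2 change of 0.93 ± 0.10. Its contact libraries were almost level, between 0.994 and 1.011 of their mean.

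Lypd3, a gene known from stratified epithelium, had 261 counts in contact (2.50, 2.49 and 2.24 FPKM) and none in transwell libraries. With 3 counts for the whole transwell group as the floor, contact was at least 73.7-fold higher by counting error alone. Slurp1, the gene of a secreted member known from skin, had 39 counts in contact and none in transwell libraries, too few for the test. Lynx1, known as a modulator of acetylcholine receptors, was named after its values were seen. It stood at 0.99 ± 0.217 against 0.163 ± 0.0850 FPKM (SD, n = 3; log2 change 2.45 ± 0.35). The gene of the complement inhibitor CD59, Cd59a, fell from 3.56 ± 0.635 to 2.47 ± 0.117 FPKM (-0.64 ± 0.18, edgeR adjusted p = 0.018), a call that ended without contact replicate 3, transwell replicate 2 or transwell replicate 3 (log2 changes -0.60, -0.54 and -0.64). Ly6m, at 37 counts against 39, was not called.

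**Figure D3:**
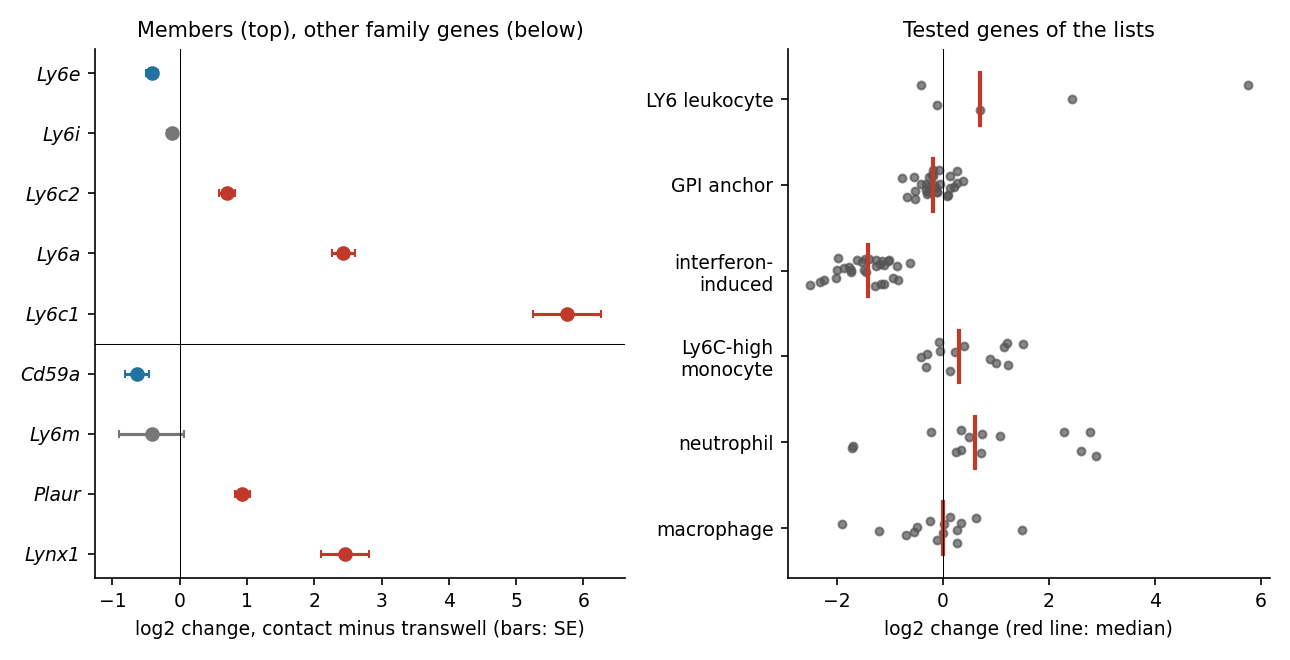
Left, log2 change (contact minus transwell) with its SE for the 5 tested members and, under the line, 4 tested relatives (red, higher; blue, lower; grey, not called). Right, log2 changes of the tested genes of 6 lists, 1 point per gene, with red lines at the medians, which are -0.19 for GPI anchor genes and -1.42 for interferon-induced genes; the line of the LY6 members includes Ly6c1, which passed the filter through contact libraries alone.

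Most LY6 proteins need a GPI anchor, which a chain of PIG enzymes builds in the endoplasmic reticulum and PGAP enzymes then trim. Of 29 tested genes of this pathway none rose, 6 fell and 23 were not called, with a median log2 change of -0.19. Among all genes tested 16.1% were called lower and 21.4% higher, so some falls in a list of this size are common here. Among the 6 that fell, the largest changes were those of Pigz, a mannosyltransferase gene (1.34 ± 0.0850 against 2.12 ± 0.0751 FPKM), Pgap2 (22.1 ± 0.418 against 32.4 ± 0.908 FPKM), Pign (-0.53 ± 0.14) and Pigk, the gene of the catalytic transamidase subunit (-0.42 ± 0.08). The call of Pign ended without contact replicate 1 (-0.48), contact replicate 2 (-0.49) or transwell replicate 3 (-0.52). Testing log2(FPKM + 1) (-0.31) or log2(FPKM + 0.1) (-0.39) with limma ended it too.

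Interferon induces several LY6 genes in other settings, so the members were set beside interferon-induced genes. All 30 genes of that list were tested and all 30 fell, with a median log2 change of -1.42 and a range of -2.51 to -0.63. Of all genes tested 16.1% were called lower. The list was chosen with earlier results of these data known, so its count is a description. Ifit3 went from 70.2 ± 4.88 to 13.4 ± 1.25 FPKM, Usp18, the gene of a brake on interferon signalling, from 25.3 ± 2.24 to 5.53 ± 0.0981 FPKM, and Zbp1, the gene of a nucleic acid sensor, from 40.4 ± 1.88 to 9.25 ± 0.619 FPKM. The summed level of the list was 1212 to 1270 FPKM in contact and 2771 to 2972 FPKM in transwell libraries. None of the 5 tested LY6 members had a change inside the range of this list: Ly6e had -0.41 and Ly6i -0.11, and Ly6a, Ly6c1 and Ly6c2 were higher. The difference between the lists was not tested.

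Other genes of Ly6C-high monocytes were compared because Ly6c2 is read together with them. Of 14 tested, 7 rose, 2 fell and 5 were not called, with a median log2 change of 0.31. Among all genes tested 21.4% were called higher and 16.1% lower. Fn1, the fibronectin gene (13.6 ± 0.962 against 4.41 ± 0.691 FPKM), Plac8 (15.7 ± 2.13 against 6.17 ± 2.19 FPKM) and Vcan, the gene of versican (11.6 ± 2.94 against 4.86 ± 1.25 FPKM), rose. Ms4a4c (log2 change -0.41 ± 0.11) and Hp (-0.31 ± 0.10) fell, and the Hp result stayed the same under 8 of 15 alternatives. Among the 5 not called, Chil3 had a log2 change of 0.22 and Mgst1 of -0.05. Prtn3, which precursors of both lineages make, rose from 8.86 ± 3.81 to 22.2 ± 7.82 FPKM with groups that overlapped (edgeR adjusted p = 0.0148), and its call ended without contact replicate 1 (log2 change 1.03), contact replicate 2 (1.07) or transwell replicate 3 (1.03) and with DESeq2 (1.18). The summed level of the list was 878 to 945 FPKM in contact and 670 to 856 FPKM in transwell libraries.

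The 15 macrophage markers were present in every library and summed to 17040 to 19070 FPKM in contact and 18500 to 19610 FPKM in transwell libraries. Lyz2 alone made up most of these sums (12180 ± 838 against 13310 ± 484 FPKM), so they say little of the other markers. By single genes 5 rose and 6 fell, with Cd14 higher (1343 ± 30.04 against 442 ± 15.6 FPKM) and Adgre1 lower (578 ± 57.1 against 1228 ± 83.7 FPKM). For this list and those that follow, the shares of all genes tested were 21.4% higher and 16.1% lower. Markers of T and B lymphocytes, where Ly6a, Ly6c1 and Ly6d can be found, summed to 10.6 to 11.1 FPKM in contact and 8.79 to 11.9 FPKM in transwell libraries, and 11 of 13 had a mean under 0.5 FPKM in each group. Most of these sums came from 2 genes that moved in opposite directions. Cd4 rose (4.72 ± 1.08 against 1.76 ± 0.150 FPKM, log2 change 1.31) and Cd79b fell (5.17 ± 0.648 against 7.67 ± 1.17 FPKM, -0.69). Endothelial markers, of cells that make Ly6c1 and Ly6a, summed to 2.0 to 2.86 FPKM in contact and 1.82 to 2.38 FPKM in transwell libraries, with 11 of 12 under 0.5 FPKM in each group. Of 5 tested, 3 rose in contact, namely Cdh5 (0.393 ± 0.150 against 0.120 ± 0.0436 FPKM, log2 change 1.59), Kdr (1.35) and Egfl7 (1.20, edgeR adjusted p = 0.0496). With 28 and 20 counts over the transwell group, Cdh5 and Egfl7 passed the filter through contact libraries, so this count is a description. The 1 that fell, Vwf (0.823 ± 0.103 against 1.29 ± 0.251 FPKM), made up most of the transwell sum. Fibroblast markers summed to 11.1 to 25.6 FPKM in contact and 3.72 to 8.39 FPKM in transwell libraries, with 5 of 8 tested genes higher and none lower. Their sum was highest in contact replicate 1. Mitochondrial genes took 1.74% to 1.82% of counts in contact and 0.923% to 1.25% in transwell libraries. The part of these cell types and of RNA quality in the LY6 results was not tested.

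The Ly6 cluster was then read as a whole, from Psca to Gpihbp1, an interval chosen after values were seen. It spans 884.6 kb and holds 50 genes of the deposited table, of which 20 had no count in any library and 11 were tested. Of these, 7 were higher in contact, 2 lower and 2 not called, where 21.4% of all genes tested were higher and 16.1% lower. Between Ly6c1 and Ly6c2 lies Gm5960, annotated as a pseudogene, at 14.04 ± 1.11 against 2.65 ± 0.35 FPKM (SD, n = 3; log2 change 2.28 ± 0.22). Ly6a2, 136.8 kb from Ly6a, stood at 18.8 ± 2.47 against 7.01 ± 2.55 FPKM (1.30 ± 0.22). On the far side of Ly6e from Ly6a, the noncoding gene Gm39556 was lower (-1.72 ± 0.36). Farther out on that side, Lynx1 and Them6 were higher, Them6 at 7.48 ± 1.28 against 2.27 ± 0.240 FPKM (1.60 ± 0.17). The tested genes on the side of Ly6e and Ly6i, which lie 39 and 15 kb from Ly6a, were thus mixed in direction (2 higher, 2 lower and 2 not called). The 4 on the other side were higher, but Ly6c1 among them passed the filter through contact libraries alone. With 39 genes of the interval too low to be tested, these counts are a description, and a difference between the sides was not tested.

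**Figure D4:**
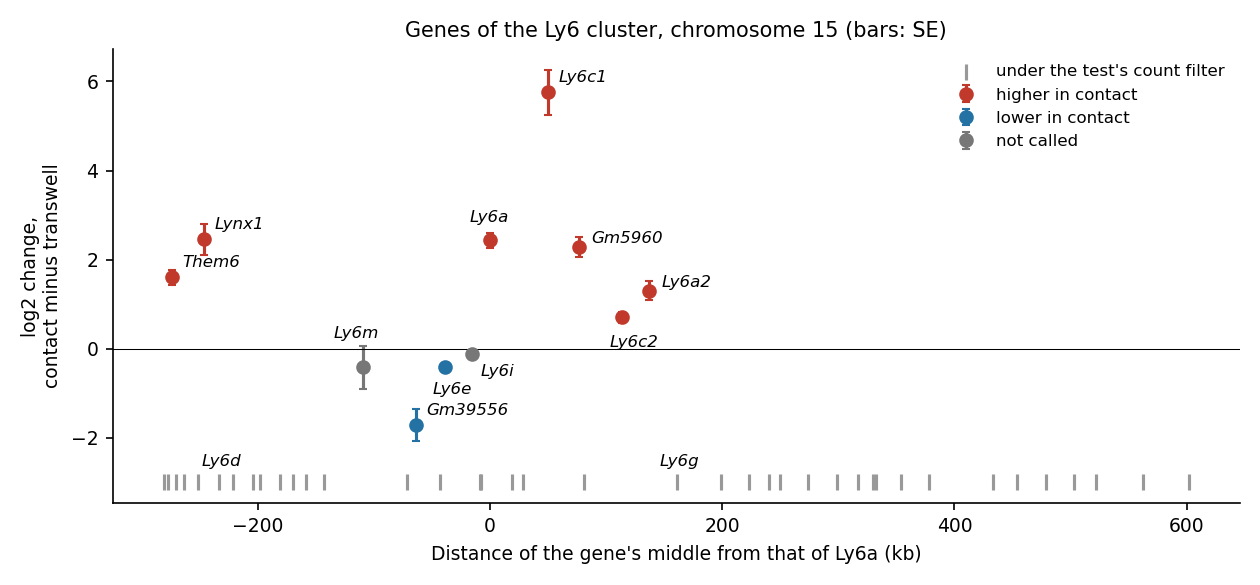
Log2 change (contact minus transwell, bars are SE) of the 11 tested genes of the Ly6 cluster against the distance of their middle from that of Ly6a in kb, with grey ticks for 39 genes too low to be tested. The tested genes to the right of Ly6a, Ly6c1, Gm5960, Ly6c2 and Ly6a2, are all higher in contact, and those to its left are mixed, with Ly6e and Ly6i at -0.41 and -0.11 and Lynx1 and Them6 at 2.45 and 1.60. Ly6c1 passed the filter through contact libraries alone.

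Promoter sequence was at hand for 3 of the 7 members (Ly6c1, Ly6c2 and Ly6g) from RefSeq, build GRCm38.p6. The 250 bases upstream of the first listed start are shown for Ly6c1 and Ly6c2, which rose together at very different levels. They are written 5′ to 3′ on the minus strand of the genome, with matches to the motifs searched in capitals. The windows are chr15:75048838-75049087 for Ly6c1 and chr15:75111972-75112221 for Ly6c2.
Ly6c1 promoter: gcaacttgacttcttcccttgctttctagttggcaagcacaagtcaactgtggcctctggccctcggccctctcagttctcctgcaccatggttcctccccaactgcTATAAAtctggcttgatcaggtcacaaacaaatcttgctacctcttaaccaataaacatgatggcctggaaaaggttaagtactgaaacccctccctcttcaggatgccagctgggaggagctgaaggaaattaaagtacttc
Ly6c2 promoter: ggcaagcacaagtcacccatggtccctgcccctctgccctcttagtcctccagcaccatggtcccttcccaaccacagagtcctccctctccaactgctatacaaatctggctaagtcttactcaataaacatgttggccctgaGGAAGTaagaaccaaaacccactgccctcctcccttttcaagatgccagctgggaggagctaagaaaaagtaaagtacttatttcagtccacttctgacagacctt
Aligned with free ends, they were identical at 164 of 228 columns (71.9%), against 97.7% in the coding sequence. The motifs, searched on both strands, were TATAAA, the ETS core GGAAGT and the STAT site TTCNNNGAA. The Ly6c1 window held 1 TATAAA, at 143 bases before the start, and the Ly6c2 window 1 GGAAGT, at 106 bases before the start. The STAT motif matched in neither window, and the matches shown overlap no other motif. The Ly6g window, not shown, held 1 TATAAA at 99 bases and 1 GGAAGT at 29 bases before the start, and no STAT match. It was 75.1% identical to the Ly6c1 window and 65.5% to the Ly6c2 window. A link of these motifs to the transcript levels was not tested. Of 32851 RefSeq promoters, 12.4% held TATAAA, 19.7% GGAAGT and 7.02% TTCNNNGAA in the same 250 bases.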

How the data were processed

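The authors deposited 1 table with raw read counts per Ensembl gene for 3 contact and 3 transwell libraries (18173192 to 22563835 counts each), per the file headers. It also holds the authors' FPKM, and 99.93% of values with a count above 100 lay within 1% of FPKM recomputed from count, exonic length and total. Libraries are from mRNA-seq of Trizol RNA, per the labels' protocols. GRCm38 and mm10 are the builds in the submitters' processing notes. The sources used here do not give aligner, counter, annotation or strand setting. Of 52073 gene IDs shared with GENCODE M21, 1472 had the deposited start and end, so positions were taken from GENCODE M21.

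Groups and replicate numbers came from sample titles. Counts were filtered with filterByExpr (minimum count 10, 14113 genes kept), scaled by TMM and tested with edgeR 4.0.16 (quasi-likelihood, two-sided, Benjamini-Hochberg over all tested genes, threshold 0.05; R 4.3.3). SE is the absolute log2 change over the square root of F. Replicates differed by more than sampling noise (chi-square per degree of freedom 6.376 to 25.18). Alternatives were other filters and scalings, DESeq2 1.42.0, limma 3.58.1 on log2(FPKM + 1) and log2(FPKM + 0.1), a replicate block, omission of epithelial and mitochondrial genes, and each library left out. The test was checked on simulated counts.

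Members and lists were chosen with earlier results of these data known. Named genes are the members, up to 4 called genes per list with the largest changes and at least 1 FPKM, the most abundant markers, and the 3 nearest profiles (log2 CPM, prior count 2) of each called member. Locus genes, Slurp1, Ly6m, Lynx1, Ms4a4c, Cdh5, Kdr and Egfl7 were named after their values were seen. Figures were drawn with matplotlib 3.10.9.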

Additional observations from a re-analysis of the deposited data

How the results depend on the processing

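Under all 15 alternatives Ly6a (log2 change 2.21 to 2.57), Ly6c1 (2.35 to 6.34), Ly6c2 (0.57 to 0.85) and Ly6e (-0.48 to -0.29) kept their direction and their call, with adjusted p at most 0.000129, 0.000241, 0.0105 and 0.034. The lowest value of Ly6c1, 2.35, came from limma on log2(FPKM + 1), a scale that shortens changes of low genes. Ly6i was called under none of the 15, and was 0.01 with scaling by library size only and in limma with a pseudocount of 1 or 0.1. Leaving out 1 library gave 4042 to 5310 called genes, 2465 to 3093 higher, 1577 to 2217 lower, 3 to 4 members higher and 1 lower. It gave 2.21 to 2.57 for Ly6a, 5.19 to 6.34 for Ly6c1, 0.57 to 0.85 for Ly6c2, -0.48 to -0.33 for Ly6e and -0.16 to -0.04 for Ly6i. Genes called lower numbered 2270, but 1450 with library size only and 1422 and 1442 in limma with a pseudocount of 1 and 0.1. The share of calls that were higher was 57.1%, and 73.1%, 72.8% and 73.0% under these settings, where the median change of all genes moved by 0.117, 0.069 and 0.113. Mgst1 changed sign under the same 3 settings (0.06 in each) and S100a8 when 1 library was left out (-0.40 to 0.18, the highest without transwell replicate 1), and neither was called in these settings. With no filter on low counts S100a8 (-0.26) and S100a9 (0.30) were called, but with smaller SEs than in the main fit (0.0957 and 0.0952 against 0.237 and 0.337). Of 820 values of 55 other named genes, 772 kept direction and side of the threshold.

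No pairing of the libraries by replicate number was seen, though 3 libraries per group are too few to exclude one. Deviations of same-numbered libraries correlated at -0.083, -0.445 and 0.056, and no library correlated best with its own number. With a replicate block 5124 genes were called, and Ly6a (2.40), Ly6c1 (5.79), Ly6c2 (0.71) and Ly6e (-0.41) remained called, while S100a9 became called (0.48, adjusted p = 0.0395 by edgeR). Ly6g and Ly6d are limited by depth, at 12 and 38 counts over 6 libraries.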
